A study of Mus musculus with 8 samples.

Results

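Serpins are a superfamily of protease inhibitors and related proteins, divided into lettered clades. Here the members were chosen by name, as every gene in the deposited expression table whose symbol begins with Serpin, a clade letter from a to i and a number. The rule found 49 of 17164 genes, of which 30 were expressed highly enough to be tested (2 or more of the 8 libraries at an FPKM of 1 or above). FPKM is the number of sequenced fragments of a gene, scaled to its transcript length and to the depth of the library. Clade A held 23 members (17 tested), clade B 17 (5 tested), clades E and F 2 each, and clades C, D, G, H and I 1 each. The single clade I member, Serpini1, was not tested.

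The study asked how a herbal preparation, Diwu Yanggan capsules (DWYG), acts on liver cancer provoked by chemicals in mice. All groups were male C57BL/6 mice, 6 per group, and whole liver of 2 mice per group, drawn at random, was sequenced after sacrifice at 22 weeks of age. Control mice received saline at 2 weeks of age in place of DEN, and no CCl4 or olive oil is recorded for them. Model mice received the carcinogen diethylnitrosamine (DEN, 0.67%) by intraperitoneal injection at that age, and then repeated intraperitoneal carbon tetrachloride (CCl4, 20% in olive oil), a liver toxin, from 8 weeks of age until sacrifice. The DWYG-M and DWYG-H mice carried the same DEN and CCl4 exposure as the model mice. From 17 weeks they also received DWYG, at 1 multiple (DWYG-M) or 2 multiples (DWYG-H) of the clinical equivalent dose. DEN and CCl4 were always given together, so their parts cannot be told apart, and the sources do not say whether the sequenced tissue held tumour.

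An inhibitory serpin presents a flexible stretch, the reactive centre loop, as bait. A target protease cuts the loop and is trapped as the inhibitor changes shape, so the residues of the loop decide which proteases a serpin can stop. The liver secretes most of the serpins of blood plasma, which restrain leukocyte elastase, the clotting and fibrin-dissolving enzymes and complement. Some members inhibit nothing and carry hormones or help collagen to fold, and clade B members mostly act inside cells. Mice carry several near-identical copies of 2 human genes, SERPINA1 (alpha-1 antitrypsin, the main inhibitor of neutrophil elastase) and SERPINA3 (alpha-1 antichymotrypsin).

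The coding sequence of the loop is shown for the abundant copies, because the results differ between copies and the loop is where a copy meets its target. Each run covers 81 coding bases (27 codons) from the start of the loop's hinge, read from GENCODE transcripts of build GRCm38. Capitals mark the bases that are not the same in all copies shown, which are 18 of 81 in the Serpina1 copies.
Serpina1a: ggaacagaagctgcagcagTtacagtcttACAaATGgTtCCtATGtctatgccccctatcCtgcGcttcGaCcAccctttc
Serpina1b: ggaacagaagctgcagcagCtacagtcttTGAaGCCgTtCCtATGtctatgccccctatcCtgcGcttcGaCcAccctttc
Serpina1c: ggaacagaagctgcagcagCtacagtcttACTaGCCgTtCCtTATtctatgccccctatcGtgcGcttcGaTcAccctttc
Serpina1d: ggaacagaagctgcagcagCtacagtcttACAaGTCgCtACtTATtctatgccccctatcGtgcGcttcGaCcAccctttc
Serpina1e: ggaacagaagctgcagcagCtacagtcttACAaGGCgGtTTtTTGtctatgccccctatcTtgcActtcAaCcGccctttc
Over the whole coding sequence the Serpina1 copies were between 91.5% and 96.7% identical. In the loop, pairs of copies differed at 5 to 12 of the 81 bases, and Serpina1b and Serpina1e at 11. The same stretch of the abundant Serpina3 copies differed at 42 of 81 bases.
Serpina3k: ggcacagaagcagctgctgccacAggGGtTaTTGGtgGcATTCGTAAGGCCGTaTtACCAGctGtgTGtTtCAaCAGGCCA
Serpina3m: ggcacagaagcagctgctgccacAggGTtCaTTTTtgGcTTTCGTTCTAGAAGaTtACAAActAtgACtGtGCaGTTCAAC
Serpina3n: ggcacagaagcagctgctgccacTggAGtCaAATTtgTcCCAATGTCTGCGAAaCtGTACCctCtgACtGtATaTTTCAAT
Serpina3k and Serpina3m were 90.8% identical over the coding sequence, and Serpina3n was 82.6% identical to Serpina3k and 85.2% to Serpina3m.

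Such likeness limits how well reads can be given to one copy. Of all runs of 100 coding bases, 57.7% in Serpina1a, 27.9% in Serpina1b, 61.7% in Serpina1c, 29.8% in Serpina1d and 19.1% in Serpina1e occurred without a mismatch in another serpin. The share was 8.2% in Serpina3k, 8.2% in Serpina3m and 0.1% in Serpina3n. The deposited counts of 9 serpins (Serpina1a to Serpina1e, Serpina3f, Serpina3i, Serpina3k and Serpina3m) were not whole numbers in any library, as when shared reads are divided among genes. Those of Serpina3n were whole in all 8 libraries, within 0.005. Values of single copies are therefore uncertain for Serpina1 and less so for Serpina3n, and sums over copies are given beside them.

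The 8 libraries held between 17345627 and 19191382 estimated counts. Replicates correlated across genes at r = 0.984 in control, 0.961 in model, 0.981 in DWYG-M and 0.978 in DWYG-H, and model replicate 1 stood nearer to the DWYG libraries (0.963 to 0.976) than to model replicate 2. Summed FPKM of 5 hepatocyte markers was between 57400 and 107000 in every library, so the label liver fits the RNA. Fold changes below are log2 values from edgeR with their standard error (SE), 2 libraries per group, relative to a scaling (TMM) that left the median gene at -0.01 in model against control. On log2(FPKM + 1) that median was 0.21 and on log2(TPM + 1) it was 0.50. Of all called genes 68% were higher in model under TMM, 91.7% on FPKM and 97.5% on TPM. Ratios of FPKM values between model and control therefore run above the fitted folds. Libraries of mice given DEN and CCl4 can then lie above both controls in FPKM with little fitted difference. Serping1 did so in all of them, with a log2 fold change of 0.14 in model and -0.09 in DWYG-M against control. The share of all genes that separate in this way was not counted. Rises and falls are printed on the log2 scale.

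**Figure D1:**
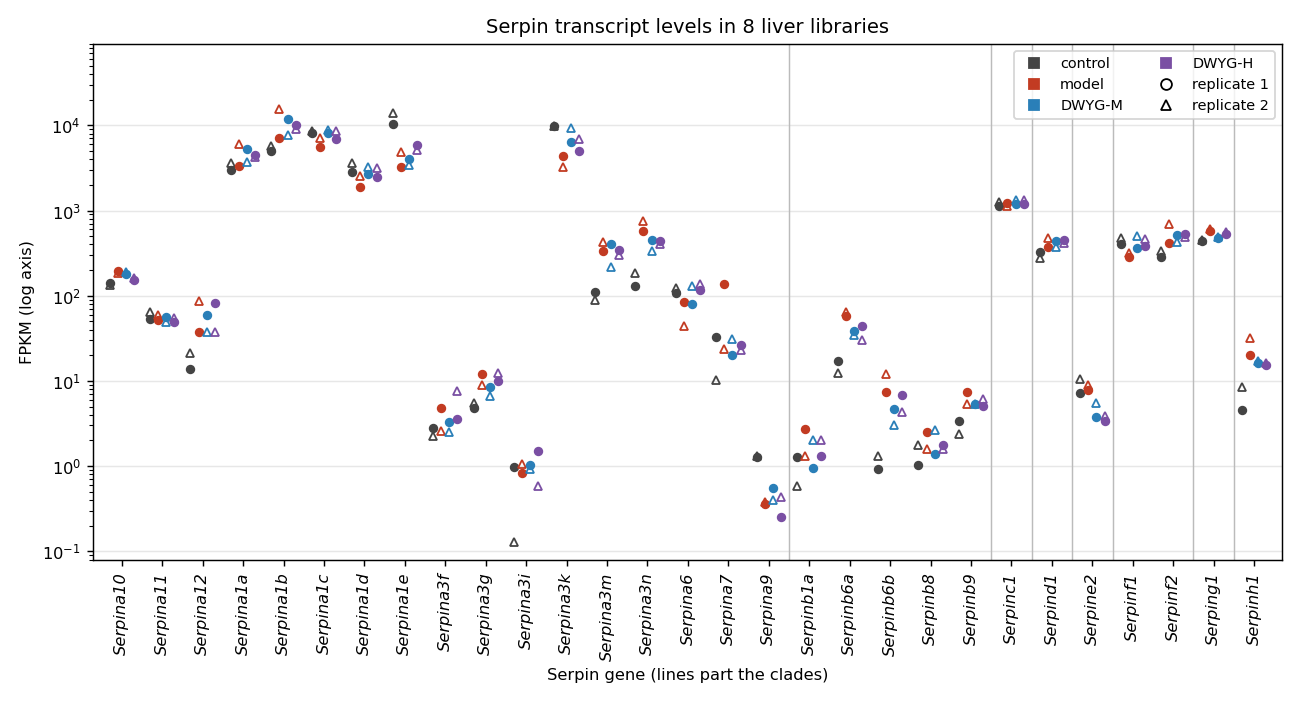
FPKM (log axis) of the tested serpins reported here in each of the 8 liver libraries, with groups by colour, replicates by symbol and lines between clades. Serpina1 copies and Serpina3k stand highest in every library, whereas Serpinb6b is lowest in the 2 control libraries and highest in the 2 model libraries.

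Serpins were a large part of the liver's messenger RNA. Their share of the counted reads was 5.0% and 5.76% in the controls, 3.65% and 5.35% in the model livers, 5.12% and 4.90% under DWYG-M and 4.69% and 5.01% under DWYG-H. The groups overlapped in this share. In all, 16 members reached an FPKM of 100 in at least 1 library, among them the Serpina1 copies, Serpina3k, antithrombin (Serpinc1), C1 inhibitor (Serping1) and heparin cofactor II (Serpind1).

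In model against control liver, 12 of the 30 tested serpins were called at an adjusted p under 0.05 (40.0%), where 22.2% of all 11606 tested genes were called. Of these, 7 were higher and 5 lower, against 15.1% and 7.12% of all genes. The median log2 fold change of the 30 was 0.44, with -0.01 for all genes. Serpina9 passed the filter on low values through the controls alone, so it had to differ, and its place among the lower calls is a description. Among them, Serpinb6b, Serpinb6a, Serpina3n, Serpinh1, Serpina3m and Serpinb9 rose. Serpina1e, Serpina3k, Serpina6 and Serpinf1 fell, and Serpina9 was lower. By clade, A had 2 higher and 4 lower of 17, B 3 higher of 5, F 1 lower of 2 and H its 1 member higher, while the single members of C, D and G were not called by edgeR. On TPM, limma called 14 serpins higher and 3 lower, Serpind1 and Serping1 among the higher. In that setting 5448 of all 11606 tested genes were called, 97.5% of them higher, so TPM calls are to be read against that. The calls of Serpinb6b, Serpinb6a and Serpina3n held in each of the 8 fits that left out 1 library. Those of Serpina3m, Serpinh1, Serpinb9, Serpina9, Serpina1e, Serpina3k, Serpina6 and Serpinf1 were each lost in at least 1 of them.

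**Figure D2:**
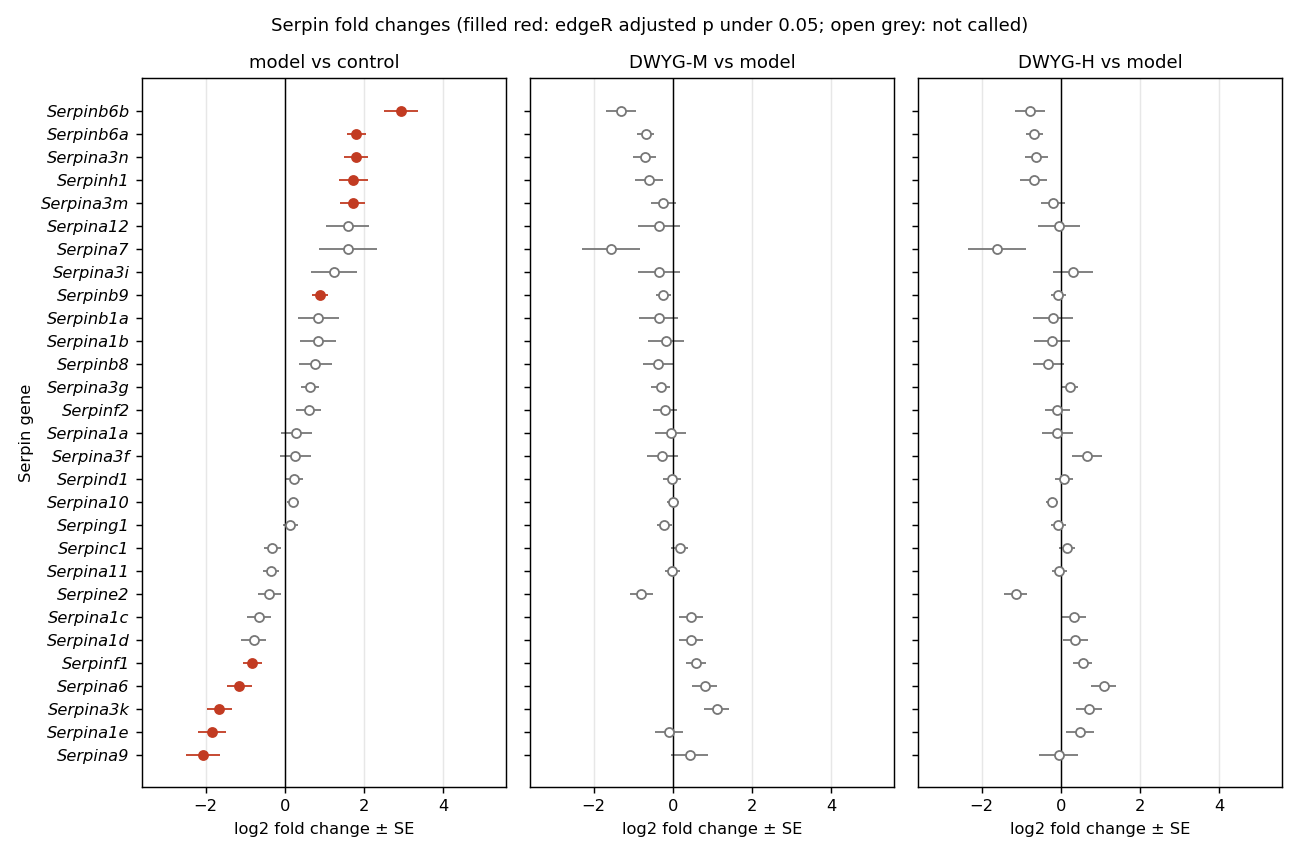
Log2 fold change with its SE for each tested serpin reported here in model against control and in each DWYG group against model, in the order of the first panel, with filled red points for an edgeR adjusted p under 0.05. In the first panel the called serpins run from Serpina9 at -2.06 to Serpinb6b at 2.94, and no point is called in either DWYG panel.

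The Serpina1 copies together did not pass the test in model liver, but their make-up differed. Serpina1e fell, with an FPKM of 10270 and 14092 in the controls, 3255 and 4856 in the model livers, 4061 and 3396 under DWYG-M and 5884 and 5196 under DWYG-H. Both control libraries stood above all 6 libraries of exposed mice. In model against control the log2 fold change of Serpina1e was -1.84 (SE 0.36, adjusted p = 0.0114), and without control replicate 2 it was -1.56 (adjusted p = 0.0702). Serpina1b had 5016 and 5736 in the controls, 7028 and 15467 in the model livers, 11959 and 7721 under DWYG-M and 10091 and 9023 under DWYG-H. Every exposed library lay above both controls on the FPKM scale, where the median gene was also higher in model. The fitted difference was not called (0.83, SE 0.46, adjusted p = 0.234). Model replicate 2 decides that value: the log2 fold change was 0.01 without it, and 1.37 (adjusted p = 0.0383) without model replicate 1. On TPM, limma called it (1.28, adjusted p = 0.0295), as it did 5448 of all 11606 tested genes.

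Serpina1a, with 2949 and 3592 in control and 3360 and 6113 in model, overlapped between these groups (0.29, adjusted p = 0.638). Its log2 fold change was -0.34 without model replicate 2. Serpina1c, at 8102 and 8560 in control and 5569 and 7073 in model, had -0.65 (SE 0.30, adjusted p = 0.162). Serpina1d, the scarcest of the 5 copies in the model libraries, had 2851 and 3562 in control and 1891 and 2556 in model, with -0.79 (SE 0.31, adjusted p = 0.113). Both lay lower in the model libraries than in either control, without passing the edgeR test. DESeq2 called both lower (Serpina1c -0.65, adjusted p = 0.0314, and Serpina1d -0.78, 0.0247).

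As a share of the summed Serpina1 FPKM, Serpina1e made up 35.2% and 39.6% in the controls, 15.4% and 13.5% in the model livers, 12.7% and 12.6% under DWYG-M and 19.7% and 17.2% under DWYG-H. It was the leading copy in both controls and in no other library. Serpina1b made up 17.2% and 16.1% in the controls, 33.3% and 42.9% in the model livers, 37.3% and 28.6% under DWYG-M and 33.8% and 29.8% under DWYG-H. It led in every exposed library but DWYG-M replicate 2, where Serpina1c led with 32.8%. The sum of the copies was 29200 and 35500 in the controls, 21100 and 36100 in the model livers, 32100 and 27000 under DWYG-M and 29800 and 30200 under DWYG-H, so the groups overlapped. Its log2 fold change in model against control was -0.39 (SE 0.41, adjusted p = 0.543), and it turned to 0.04 without model replicate 1 and to 0.10 on TPM.

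**Figure D3:**
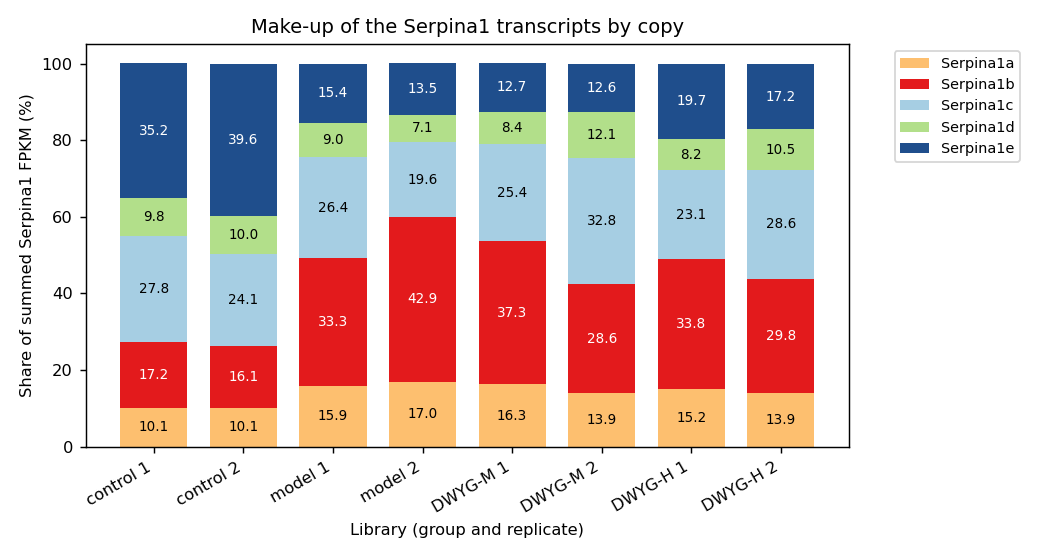
Share (%) of the summed Serpina1 FPKM held by each copy, 1 stacked bar per library. Serpina1e holds 35.2% and 39.6% in the control libraries and between 12.6% and 19.7% in the other 6.

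Promoter sequences (RefSeq, build GRCm38.p6) were found for 41 of the 49 members, some with more than 1, and searched on both strands. Serpina3k and Serpina3m were among the members without one, so they were not searched. TTCNNNGAA, the core letters bound by STAT factors, was in the promoters of 7 members (Serpina11, Serpina3f, Serpina3g, Serpina3i, Serpinb2, Serpinb6a and Serpinb9c), which is 10 of 49 serpin promoters, and in 8.3% of all 32851 promoters. TGACTCA, the core bound by AP-1, was in those of 6 members (Serpina1a to Serpina1d, Serpinb7 and Serpinb8), which is 6 of 49 serpin promoters, and in 5.2% of all. A match says only that the letters are there, and the windows start at different points in different copies.

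Among the Serpina3 copies, the most abundant fell and scarcer ones rose in model liver. Serpina3k had an FPKM of 9776 and 9859 in the controls, 4336 and 3220 in the model livers, 6377 and 9202 under DWYG-M and 4926 and 6904 under DWYG-H. The model libraries were the lowest of the 8 and the controls the highest. The log2 fold change in model against control was -1.66 (SE 0.32, adjusted p = 0.0110), with -1.63 (adjusted p = 0.0609) without control replicate 2 and -1.55 (adjusted p = 0.0551) without model replicate 2. Serpina3n, an acute phase inhibitor, had 132 and 184 in the controls, 576 and 744 in the model livers, 450 and 334 under DWYG-M and 434 and 402 under DWYG-H. Its 4 groups stood in the order control, DWYG-M with DWYG-H, and model, and no exposed library reached down to the controls. It rose by 1.80 (SE 0.30, adjusted p = 0.00599).

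Serpina3m had 110 and 89.7 in the controls, 335 and 424 in the model livers, 409 and 220 under DWYG-M and 344 and 296 under DWYG-H. It rose in model by 1.71 (SE 0.32, adjusted p = 0.00959), and it missed the threshold without control replicate 1 (1.79, adjusted p = 0.0535) or control replicate 2 (1.60, adjusted p = 0.0825). DWYG-M replicate 1 and DWYG-H replicate 1 lay within the range of the model libraries. Serpina3k made up 97.5% and 97.2% of the summed Serpina3 FPKM in control and 82.4% and 73.2% in model. Serpina3n made up 1.3% and 1.8% in control and 10.9% and 16.9% in model. The sum was 10000 and 10100 in the controls, 5270 and 4400 in the model livers, 7250 and 9770 under DWYG-M and 5720 and 7620 under DWYG-H.

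The summed Serpina3 counts fell in model by 1.28 (SE 0.30, adjusted p = 0.0208). The call was lost with these 2 groups fitted alone (-1.26, adjusted p = 0.0531). It was also lost without control replicate 1 (-1.35, adjusted p = 0.0697), control replicate 2 (-1.24, 0.0971), model replicate 1 (-1.28, 0.0532) or model replicate 2 (-1.26, 0.0795). The low copies did not pass the edgeR test. Serpina3g, at 4.87 and 5.46 in control and 11.9 and 8.94 in model, had 0.63 (adjusted p = 0.0869). It was called higher by limma on log2(FPKM + 1) (0.88, adjusted p = 0.0163), log2(FPKM + 0.1) (0.99, 0.0140) and TPM (1.20, 0.00376). Serpina3f, between 2.27 and 7.66 over the 8 libraries, had 0.26 (adjusted p = 0.675) and -0.12 without model replicate 1. Serpina3i, between 0.13 and 1.51, had 1.24 (adjusted p = 0.173).

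**Figure D4:**
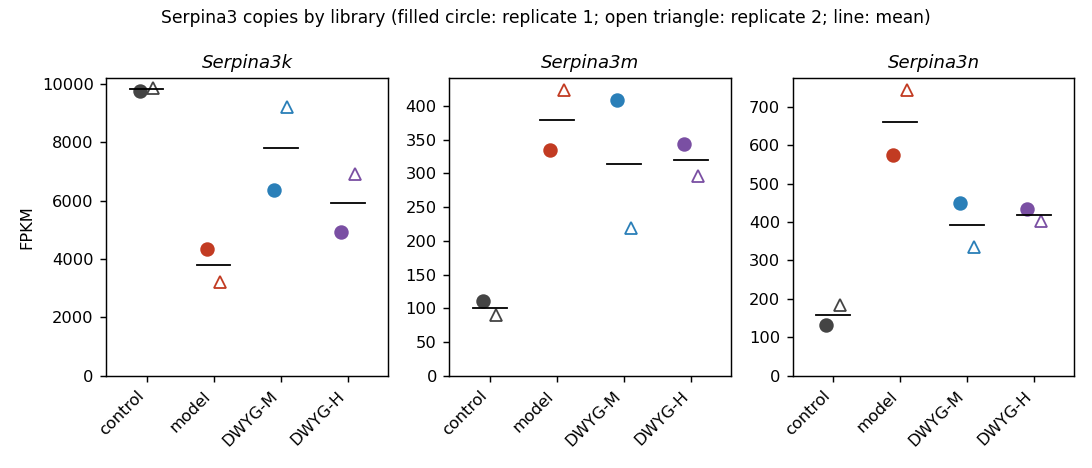
FPKM of Serpina3k, Serpina3m and Serpina3n in each library, with the mean of each group as a line. Serpina3k is lowest in the 2 model libraries (4336 and 3220), and Serpina3n is highest there (576 and 744).

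The hormone carriers and the other clade A members come next. Serpina6, corticosteroid-binding globulin, had 107 and 122 in the controls, 83.6 and 43.9 in the model livers, 79.4 and 131 under DWYG-M and 117 and 138 under DWYG-H. Its log2 fold change in model was -1.15 (SE 0.31, adjusted p = 0.0338). It missed the threshold without control replicate 1 (-1.30, adjusted p = 0.0750), control replicate 2 (-1.02, 0.140), model replicate 2 (-0.83, 0.132) or DWYG-H replicate 2 (-1.15, 0.0539). The call was lost too with a filter at an FPKM of 5 (-1.06) and with limma on FPKM (-0.90) or TPM (-0.58). Serpina7, thyroxine-binding globulin, had 33.2 and 10.3 in the controls, 139 and 23.9 in the model livers, 19.9 and 30.8 under DWYG-M and 26.5 and 23 under DWYG-H. Model replicate 1 stood far above the rest, and the log2 fold change of 1.59 (SE 0.73, adjusted p = 0.161) was -0.02 without it and 2.33 (adjusted p = 0.0318) without model replicate 2.

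Serpina9, known from germinal centre B cells, was near the detection limit. Its counts were 32 and 31 in the controls, 9 and 10 in the model livers, 14 and 10 under DWYG-M and 6 and 11 under DWYG-H, and it passed the filter through the controls alone. Its fitted log2 fold change in model was -2.06 (SE 0.43, adjusted p = 0.0137), given as a description because of that filter. With no filter on low values it was -2.11 (adjusted p = 0.0128), and with the filter it missed the threshold without control replicate 1 (-2.13, adjusted p = 0.0546) or control replicate 2 (-2.03, 0.0730). Of 3 tested B and plasma cell markers 1 was called higher, where 15.1% of all genes were. The list summed to an FPKM of 4.14 to 9.26 in control and 21.4 to 23.2 in model. Jchain, the called marker, held most of the model sum (18.8 and 12.6). Cd79a (0.69, adjusted p = 0.412) and Cd79b (0.32, 0.703) were not called, so the sum says little about them.

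Serpina12 (vaspin, an adipokine that inhibits kallikrein) had 13.8 and 21.1 in the controls, 37.3 and 87.3 in the model livers, 58.9 and 37.8 under DWYG-M and 81.6 and 37.9 under DWYG-H. All exposed libraries were above both controls on the FPKM scale, where the median gene was also higher in model. The log2 fold change in model of 1.59 (SE 0.54) was not called by edgeR (adjusted p = 0.0713). It was 2.16 (adjusted p = 0.0190) without model replicate 1. DESeq2 (1.60, adjusted p = 0.00447) and limma on log2(FPKM + 1) (1.69, 0.0414), log2(FPKM + 0.1) (1.74, 0.0389) and TPM (2.01, 0.0126) also called it. Serpina10, the protein Z-dependent protease inhibitor, which restrains factor X, had 140 and 135 in control and 196 and 186 in model (0.21, adjusted p = 0.367 by edgeR). It was called higher by limma on log2(FPKM + 1) (0.47, adjusted p = 0.0362), log2(FPKM + 0.1) (0.48, 0.0350) and TPM (0.80, 0.00305). Serpina11 had 54.0 and 63.8 in control and 51.8 and 59.5 in model (-0.35, adjusted p = 0.233; 0.24 on TPM).

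Inhibitors of clotting, of plasmin and of complement were high in every library, and edgeR called none of the 4 described here (Serpinc1, Serpind1, Serping1 and Serpinf2) in model against control. On TPM, limma called Serpind1 (0.81, adjusted p = 0.0110), Serping1 (0.72, 0.00543) and Serpinf2 (1.13, 0.00819) higher, and on log2(FPKM + 0.1) it called Serpinf2 (0.81, 0.0489). Of all 11606 tested genes, 5448 were called on TPM and 2782 on log2(FPKM + 0.1). Antithrombin (Serpinc1), which stops thrombin, had 1134 and 1274 in the controls, 1229 and 1118 in the model livers, 1197 and 1346 under DWYG-M and 1206 and 1317 under DWYG-H. The groups overlapped, and the log2 fold change in model was -0.32 (SE 0.21, adjusted p = 0.332), or 0.29 on TPM. Heparin cofactor II (Serpind1), another thrombin inhibitor, had 323 and 279 in control and 371 and 476 in model (0.23, SE 0.23, adjusted p = 0.515; -0.07 without model replicate 2). C1 inhibitor (Serping1), which restrains complement and kallikrein, had 441 and 453 in control and 576 and 604 in model (0.14, SE 0.19, adjusted p = 0.661; -0.00 without model replicate 2). For these last genes both model libraries lay above both controls in FPKM, while the fitted difference was no larger than its SE.

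The clade F pair are neighbours in the genome. Serpinf2, alpha-2 antiplasmin, the main inhibitor of plasmin, had 285 and 331 in the controls, 421 and 690 in the model livers, 523 and 427 under DWYG-M and 528 and 494 under DWYG-H. Every exposed library was above both controls on the FPKM scale, where the median gene was also higher in model. The log2 fold change in model was 0.60 (SE 0.31, adjusted p = 0.206), and 1.01 (adjusted p = 0.0274) without model replicate 1. Serpinf1, pigment epithelium-derived factor, which inhibits no protease and restrains vessel growth, had 402 and 480 in the controls, 287 and 314 in the model livers, 363 and 505 under DWYG-M and 385 and 465 under DWYG-H. It was lowest in the 2 model libraries, with -0.82 (SE 0.25, adjusted p = 0.0491). That call was lost in all 8 fits that left out 1 library (-1.0 to -0.65, with the highest adjusted p 0.210 without control replicate 2). It was also lost with limma on FPKM (-0.55, adjusted p = 0.0979) and with the 2 groups fitted alone (-0.80, 0.0949).

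Serpine2, protease nexin, a cell-surface inhibitor of thrombin and plasminogen activators, had 7.31 and 10.7 in the controls, 7.74 and 8.86 in the model livers, 3.78 and 5.48 under DWYG-M and 3.38 and 3.92 under DWYG-H. Model overlapped control (-0.39, SE 0.28, adjusted p = 0.363; 0.21 on TPM), and all 4 DWYG libraries were below the other 4.

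Serpinh1, which inhibits nothing and chaperones collagen in the endoplasmic reticulum, had 4.61 and 8.47 in the controls, 20.2 and 31.7 in the model livers, 16.2 and 17.3 under DWYG-M and 15.2 and 16.3 under DWYG-H. Each exposed library was above both controls. It rose in model by 1.73 (SE 0.36, adjusted p = 0.0141), and it missed the threshold without model replicate 2 (1.24, adjusted p = 0.0538) or control replicate 1 (1.30, 0.0634). Its collagen clients rose with it: all 10 of 10 tested collagen genes were called higher (median log2 fold change 2.77), where 15.1% of all genes were. Examples were Col5a2 (3.12, SE 0.20), Col6a3 (3.59, SE 0.26) and Col3a1 (3.59, SE 0.29).

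The clade B members that passed the filter are inhibitors that stay inside cells and guard against leaked proteases. Serpinb6a, an inhibitor of cathepsin G, had 17.0 and 12.3 in the controls, 57.9 and 63.9 in the model livers, 38.1 and 34.7 under DWYG-M and 43.6 and 30.4 under DWYG-H. The groups stood in the order control, both DWYG groups, and model, without overlap between these 3 levels. It rose in model by 1.81 (SE 0.23, adjusted p = 0.00234), the smallest adjusted p of the 30. Serpinb6b, a close relative, had 0.93 and 1.30 in the controls, 7.44 and 12 in the model livers, 4.70 and 3.05 under DWYG-M and 6.76 and 4.33 under DWYG-H. It showed the same 3 levels and rose by 2.94 (SE 0.43, adjusted p = 0.00367).

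Serpinb9, the inhibitor of granzyme B, had 3.35 and 2.39 in the controls, 7.45 and 5.29 in the model livers, 5.36 and 5.31 under DWYG-M and 5.09 and 6.17 under DWYG-H. All exposed libraries were above both controls, and the exposed groups overlapped. It rose in model by 0.89 (SE 0.20, adjusted p = 0.0173), but not without control replicate 2 (0.69, adjusted p = 0.122) or with the 2 groups fitted alone (0.90, 0.0536). Serpinb1a, an inhibitor of neutrophil elastase, lay between 0.58 and 2.76 over the 8 libraries (0.84, adjusted p = 0.290). Serpinb8 lay between 1.03 and 2.67 and overlapped between model and control (0.77, adjusted p = 0.213).

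**Figure D5:**
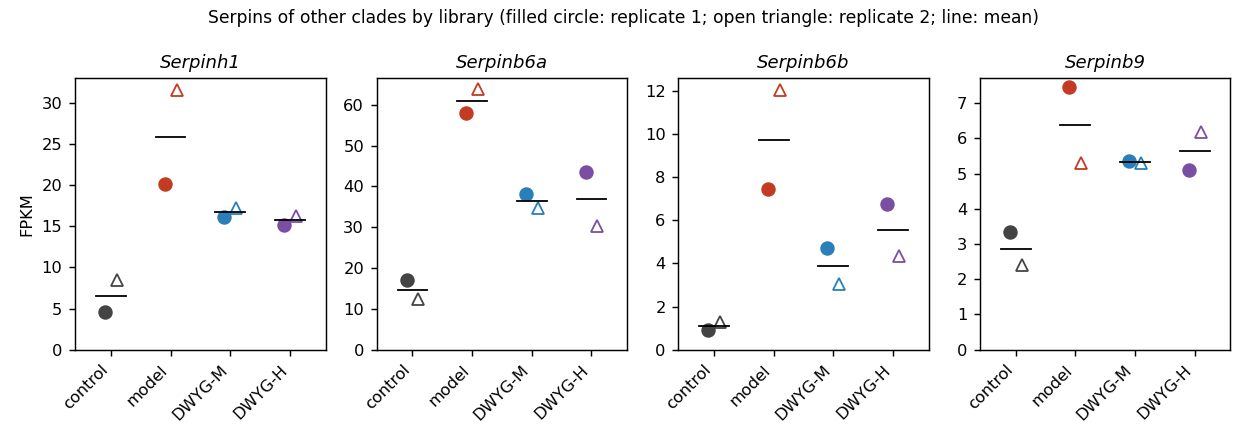
FPKM of serpins called higher in clades H and B (Serpinh1, Serpinb6a, Serpinb6b and Serpinb9) in each library, with group means as lines. In each of the 4 genes both control libraries lie lowest, and for Serpinb6a the DWYG libraries (30.4 to 43.6) lie between control and model.

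Markers of cell types were set against the 22.2% of all genes called in model against control (15.1% higher). Of the tested markers, 6 of 8 for stellate cells and fibroblasts were called higher in model, with a summed FPKM of 95.2 to 96.5 in control and 330 to 358 in model. All 6 tested cholangiocyte markers were called higher (39.1 to 42.3 against 424 to 606). So were 3 of 3 tested neutrophil markers (7.34 to 13.0 against 53.6 to 186). S100a8 (103 and 29.2) and S100a9 (78.3 and 21.1) held most of that sum in model, and the 2 model libraries differed widely. Ly6g and Mpo of that list were at 0 in both controls and at most 0.10 in model. Of 6 macrophage markers 1 was called higher (16.7%, near the share of all genes), with sums of 172 to 214 against 193 to 298. Both tested keratinocyte markers were called higher, and all 4 of that list in the table were at 0 in both control libraries (21.0 to 22.2 in model). Sprr1a held most of that sum in model (18.4 and 17.9), with Krt14 at 0.45 and 0.47 and Ivl at 0.24 and 0.16. Of the tested keratinocyte markers, Krt5 passed the filter on low values through the model libraries alone, so its call is a description. None of the 4 tested T and NK cell markers, the 5 endothelial or the 5 hepatocyte markers was called. In the DWYG libraries the stellate sum was 212 to 269 and the cholangiocyte sum 255 to 354, between control and model. Dcn, not called in model, held 130 to 180 of that stellate sum. Spp1 (175 to 268) and Tspan8 (71.6 to 120) held most of that cholangiocyte sum. These sums therefore say little about the other markers of the lists. The neutrophil sum was 80.1 to 227 in DWYG-M and 90.6 to 92.0 in DWYG-H, so DWYG-M replicate 2 stood above model and DWYG-M replicate 1 did not. S100a8 (43.7 to 131) and S100a9 (33.5 to 91.8) held most of it in the DWYG libraries, so it says little about the other markers. The B and plasma cell sum was 16.8 to 21.0 in DWYG-M and 23 to 35.0 in DWYG-H, the macrophage sum 181 to 184 and 177 to 206, and the keratinocyte sum 3.14 to 4.60 and 4.83 to 5.09. In the DWYG libraries Jchain (10.6 to 23.8) held most of the B and plasma cell sum. Sprr1a (2.76 to 4.27) held most of the keratinocyte sum. The part of these cells in the serpin results was not tested, and in whole liver a change in the number of cells of a type and a change in RNA per cell cannot be told apart.

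The proteases that serpins act on were examined as lists written from general knowledge, with a count in each to be read against the 22.2% of all genes called (15.1% higher, 7.12% lower). Such small counts say nothing particular about a list. Of 8 clotting proteases, 0 were higher and 2 lower in model (25%, near the share of all genes): Klkb1, plasma kallikrein (-1.5, SE 0.26), and Proc, protein C (-0.60, SE 0.17), whereas F11 was not called (0.58, adjusted p = 0.242). Of 4 genes of the plasminogen system, which Serpine2 and Serpinf2 restrain, 2 were higher. Plat, tissue plasminogen activator, had an FPKM of 0.23 and 0.16 in the controls, 6.77 and 7.63 in the model livers, 3.22 and 2.55 under DWYG-M and 2.44 and 2.63 under DWYG-H. It rose in model by 4.97 (SE 0.30, adjusted p = 0.000362). Plaur, the urokinase receptor, rose by 3.41 (SE 0.59), and urokinase itself, Plau, did not pass (0.74, adjusted p = 0.244). Of 6 complement proteases none was called (1 at an unadjusted p under 0.05 by edgeR), with Masp2 at -0.55 (adjusted p = 0.0718), C1ra at -0.37 and Cfb at 0.35.

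Of the 8 leukocyte proteases that clade A and B serpins stop, 3 were tested, and Prtn3, proteinase of neutrophil granules, rose by 4.77 (SE 0.63, adjusted p = 0.00253). Gzma (0.92, adjusted p = 0.371) and Gzmb (0.51, adjusted p = 0.582) did not pass. Of 7 lysosomal cathepsins 2 were called (28.6%, near the 22.2% of all genes), and Ctsk (3.88, SE 0.48) and Ctss (1.25, SE 0.20) rose, and Ctsb had 0.58 (adjusted p = 0.0573). Of 6 cell-surface serine proteases 2 were called (33.3%). Tmprss2 rose (1.56, SE 0.27), and Hgfac had 1.32 (adjusted p = 0.0597). St14, the other call, was higher (3.78, SE 0.37). It passed the filter on low values through the model libraries alone, so its call is a description.

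Inhibitors outside the serpin family gave 5 higher and 1 lower of 15 tested (40.0% called, where 22.2% of all genes were, 15.1% higher and 7.12% lower). Slpi, a secreted inhibitor of neutrophil elastase, rose by 5.61 (SE 0.51, adjusted p = 0.000807), from an FPKM of 1.81 and 1.47 in control to 57.9 and 130 in model. Itih3 rose by 0.91 (SE 0.21). Spint1, counted among the 5, was higher by 2.33 (SE 0.56). It passed the filter on low values through the model libraries alone, so its value is a description. A2m, also among the 5, was near the detection limit, at an FPKM of 0.04 in both controls and 0.43 and 1.07 in model. Of 9 tested transcription factors known to act on serpin genes, 1 was higher and 2 were lower (33.3%, against 22.2% of all genes). Stat3 rose by 0.55 (SE 0.14, adjusted p = 0.0283) and Cebpa fell by 1.09 (SE 0.30, adjusted p = 0.0365). Bcl6 had an FPKM of 3.38 and 14.2 in control and 3.29 and 1.91 in model (-2.03, SE 0.56, adjusted p = 0.0351). Control replicate 1 stood at the level of model replicate 1, so that value rests on control replicate 2.

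With DWYG, no serpin was called against model at either dose by edgeR. In DWYG-M against model 8 of 30 had an unadjusted p under 0.05, and 0.00862% of all tested genes (1 gene) were called. In DWYG-H against model 4 of 30 did, and 0% of all genes were called. These shares of all genes are at an adjusted p under 0.05. The share of all genes with an unadjusted p under 0.05 was not counted, so the 8 and the 4 cannot be read against it. The medians over the 30 were -0.23 in DWYG-M and -0.06 in DWYG-H, with -0.02 and -0.01 for all genes. DESeq2 called 2 serpins at each dose, among them Serpina3k in DWYG-M and Serpina6 in DWYG-H, while limma called 0 in its 3 settings. Both comparisons share the model libraries.

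Among the serpins with the smallest p in DWYG-M against model were Serpina3k (1.11, SE 0.32, adjusted p = 0.279) and Serpinb6b (-1.31, SE 0.38, adjusted p = 0.282). In DWYG-H against model Serpine2 (-1.14, SE 0.29, adjusted p = 0.351) and Serpina6 (1.08, SE 0.31, adjusted p = 0.395) were among them. None passed by edgeR. By DESeq2 the adjusted p was 0.00267 for Serpina3k in DWYG-M and 0.0486 for Serpina6 in DWYG-H. In each of these 4 cases the FPKM values did not overlap between model and the DWYG group. These genes were picked for a small p, so that is no separate result. Serpins with a larger p, such as Serpina1c and Serping1 in DWYG-M, did not overlap with model either. The share of all genes without overlap was not counted. The Serpina3 sum had 0.83 in DWYG-M (SE 0.30, adjusted p = 0.327 by edgeR and 0.0196 by DESeq2) and 0.49 in DWYG-H (SE 0.29, adjusted p = 0.710). The Serpina1 sum had 0.07 (SE 0.41, adjusted p = 0.970) and 0.09 (SE 0.41, adjusted p = 0.984), and both signs turned without model replicate 1 (-0.34 and -0.32).

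Between the 2 doses no serpin was called by edgeR, DESeq2 or limma, and edgeR called 0% of all genes. At an unadjusted p under 0.05 there were 2: Serpina3f was higher in DWYG-H, by a log2 difference of 0.93 (SE 0.38), and Serpina3g by 0.53 (SE 0.23), both with an adjusted p of 1.0. Serpina1e came next with 0.58 (SE 0.35). The share of all genes at an unadjusted p under 0.05 was not counted here either.

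Set against control, 3 of 30 serpins were called in DWYG-M, where 4.95% of all genes were. Of all genes 4.35% were higher and 0.603% lower. Serpinb6a (1.12, SE 0.23, adjusted p = 0.0344) and Serpina3m (1.47, SE 0.32, adjusted p = 0.0418) were higher, and Serpina1e (-1.94, SE 0.37, adjusted p = 0.0251) was lower. Without control replicate 1, control replicate 2 or DWYG-M replicate 1, 0 serpins were called, and 1 (Serpina3m) without DWYG-M replicate 2. Leaving out DWYG-H replicate 1 lost Serpina3m, and leaving out DWYG-H replicate 2 lost Serpina3m and Serpina1e. Serpina3m was 0.95 (adjusted p = 0.230) without DWYG-M replicate 1. In DWYG-H, 6 of 30 were called, where 7.69% of all genes were (6.59% higher and 1.09% lower). Serpinb6b (2.15, SE 0.43, adjusted p = 0.0240), Serpinb6a (1.13, SE 0.23, adjusted p = 0.0253), Serpina3m (1.51, SE 0.32, adjusted p = 0.0298) and Serpinb9 (0.83, SE 0.20, adjusted p = 0.0427) were higher. Serpine2 (-1.52, SE 0.29, adjusted p = 0.0201) and, as a description because of the filter, Serpina9 (-2.11, SE 0.43, adjusted p = 0.0266) were lower. Without control replicate 1 only Serpine2 of these stayed called. Without control replicate 2 or DWYG-H replicate 1 none did, and without DWYG-H replicate 2 Serpinb6a and Serpinb6b did. Serpinb9 was also lost without either DWYG-M library. These comparisons share the control libraries with each other and with model against control.

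The 19 members that were not tested reached an FPKM of at most 1.03, and their median was 7 counts in total over the 8 libraries. Among them, Serpinb2, an inhibitor of urokinase, had 2 and 0 counts in the controls, 31 and 15 in the model livers, 0 and 1 under DWYG-M and 1 and 3 under DWYG-H. Serpini1, neuroserpin, had 3 and 5 in the controls, 34 and 21 in the model livers, 11 and 10 under DWYG-M and 18 and 20 under DWYG-H. With no filter on low values, edgeR called both higher in model, Serpinb2 by 3.99 (SE 1.02, adjusted p = 0.0224) and Serpini1 by 2.34 (SE 0.55, adjusted p = 0.0160). Both were chosen for mention after their values were seen.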

How the data were processed

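RNA sequencing of liver from 8 mice, 2 per group, was used. Per the labels' protocols, 2 µg of RNA went into each library (SMART-Seq mRNA LP kit, Takara). The submitters' processing notes name build GRCm39. Aligner, counting tool, annotation and any use of strand were not given in the sources used here. No genome of that build was used, so no coordinates are printed.

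The authors deposited read counts per gene, taken here to be expected counts because some are not whole, as when reads are shared out among genes. It also holds FPKM values, which per the file headers are scaled to length and depth, TPM values deposited by the authors, and a normalized read count, a signal the authors deposited, which was not tested. The plan allowed for counts, so estimated counts were rounded and tested with edgeR's quasi-likelihood test (edgeR 4.0.16, R 4.3.3) with TMM scaling, in 1 model of 4 groups over 8 libraries with 4 residual degrees of freedom. A gene was tested where 2 or more libraries had an FPKM of 1 or above (11606 genes), with Benjamini-Hochberg adjustment over all of them in each comparison and a call at an adjusted p under 0.05. Adjusted p-values are from edgeR unless DESeq2 (1.42.0) or limma (3.58.1, on log2(value + pseudocount), pseudocounts 1 and 0.1) is named. SEs came from the F statistic. The scripts were tested on simulated data.

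Named genes were the called serpins, all tested Serpina1 and Serpina3 copies, well-known members, the 3 with the smallest p where none passed, and the 3 genes with the smallest p of each partner list. A tested member and a promoter search are not reported here, although counts over all serpins include that member. Members and lists were chosen with earlier results of these data known. Replicates are livers of different mice, and 2 per group limit the precision of every value. Alternatives were other tools, scalings, filters and pseudocounts, each library left out, and a replicate block. Replicate numbers do not pair animals.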

Additional observations from a re-analysis of the deposited data

How the results depend on the processing

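In model against control, 7 serpins were higher by edgeR, and 11 by limma on log2(FPKM + 0.1) and 14 on log2(TPM + 1). Of all 11606 tested genes, 2582, 2782 and 5448 were called in these settings, with 68%, 92.1% and 97.5% of them higher. The 5 lower calls became 2 with a filter at an FPKM of 5 and 3 with limma on log2(FPKM + 1), log2(FPKM + 0.1) or log2(TPM + 1). DESeq2 called 1 serpin higher and 1 lower in DWYG-M against model, and 1 higher and 1 lower in DWYG-H against model, where edgeR called 0. In DWYG-M against control the 2 higher calls became 6 with DESeq2, 1 with the filter at 5, 4, 5 and 11 with limma on FPKM + 1, FPKM + 0.1 and TPM + 1. The 1 lower call became 2 with DESeq2, with no filter, and with limma on FPKM + 1 and TPM + 1. In DWYG-H against control the 4 higher calls became 9 with DESeq2 and 7, 7 and 12 with the 3 limma settings, and the 2 lower became 4 with DESeq2 and 1 with the filter at 5.

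With 1 library left out, calls in model against control ranged from 5 to 10 higher and 0 to 4 lower. They ranged from 0 to 4 higher and 0 to 2 lower in DWYG-M against control, and from 0 to 5 higher and 0 to 3 lower in DWYG-H against control. No such fit called a serpin between DWYG and model or between doses. The lone library left in a group is then assumed to vary like the other groups. The Serpina3 sum ranged from -1.35 to -1.24 in model against control, 0.60 to 1.03 in DWYG-M and 0.29 to 0.68 in DWYG-H against model. It was -1.26 and not called with the 2 groups alone, and 0.83 in DWYG-M and called with DESeq2.

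Signs turned as follows. The Serpina1 sum in model against control was 0.10 on TPM and ranged from -0.96 to 0.04 with 1 library left out (0.04 without model replicate 1). Against model it ranged from -0.34 to 0.64 in DWYG-M (-0.34 without model replicate 1, -0.06 without DWYG-M replicate 1) and from -0.32 to 0.66 in DWYG-H (-0.32 without model replicate 1). On TPM, Serpina11 was 0.24, Serpinc1 0.29 and Serpine2 0.21. With 1 library left out, Serpina3f ranged from -0.12 to 0.57 and Serpina7 from -0.02 to 2.59 (both lowest without model replicate 1). Serpina1a ranged from -0.34 to 0.74, Serpind1 from -0.07 to 0.50 and Serping1 from -0.00 to 0.28 (lowest without model replicate 2). The causes were not tested. Among single genes under the alternatives, 749 values kept direction and side of the threshold, 74 lost a call, 26 gained one and 8 changed sign.

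The replicate numbers mark no shared animal, and deviations of same-numbered libraries correlated between groups at -0.143 to 0.255. With the replicate number as a block, model against control had 7 serpins higher and 5 lower, with Serpina6 losing its call (-1.12, adjusted p = 0.0510) and Serpina1d gaining one (-0.80, 0.0467). DWYG-M against control had 1 higher and 2 lower, and DWYG-H against control 3 higher and 2 lower. With the block the Serpina3 sum in model against control was -1.27 and the Serpina1 sum -0.41.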
